A study of Homo sapiens with 9 samples.

Results

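The MYC, MAX and MXD network was followed at the mRNA level in the established human colorectal cancer line SW480, kept in hypoxia at 1% O2 for 48 h. Its 10 genes (MYC, MYCN, MYCL, MAX, MXI1, MXD1, MXD3, MXD4, MNT and MGA) were taken by symbol from the 41041 genes of the expression table, and all 10 were found. The 9 poly(A) RNA libraries form 3 groups of 3 biological replicates. Cells of the SFN+5-FU group received sulforaphane (SFN), a plant isothiocyanate, with 5-fluorouracil (5-FU), an antimetabolite used against colorectal cancer. Cells of the SFN group received SFN alone at 25 µM, and control cells were untreated. The labels state neither the dose of 5-FU nor that of SFN given with it. All 3 groups share the cell line and the hypoxia, and the samples hold neither cells in normal oxygen nor cells on 5-FU alone. Every value therefore comes from 1 line, and a difference between SFN+5-FU and control cannot be divided between the 2 compounds. The title of the series speaks of PI3K/AKT/mTOR and HIF-1α signalling, and no label names the MYC network as an aim.

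MYC is a transcription factor that binds DNA only as a pair with MAX, most often at the E-box sequence CACGTG, and raises the transcription of genes for ribosome assembly, nucleotide and polyamine synthesis and cell growth. MXI1 (also called MXD2), MXD1, MXD3, MXD4 and MNT pair with the same MAX protein, bind the same sequence and recruit the SIN3-HDAC corepressor, so they oppose MYC. MGA also pairs with MAX and belongs to the repressive Polycomb complex PRC1.6. In colorectal cancer, MYC is a known target of Wnt and β-catenin signalling, and in hypoxia MXI1 is a known target of HIF-1.

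The E-box is shown first because it is the sequence that network proteins recognise, and because MYC-family factors and HIF-1 read overlapping letters. ACGTG is a form of the HIF-1 core motif, and other forms, such as GCGTG, were not searched. RefSeq promoter windows (GRCh38.p14) were at hand for 9 of the 10 members, 14 windows in all, and MYC had no window. In the 250 bases before each start, CACGTG lay in 2 of the 14 member windows, those of MXD4 and MNT, and in 6.34% of 35116 promoter windows. ACGTG on either strand, which every CACGTG also contains, lay in 5 of the 14 windows (MXI1, MAX, MXD4, MNT and MGA) and in 18.5% of all windows. The stretches below are 3 of these windows, with any exon sequence left off and the match in capitals. The letters are a description and do not show that a protein binds there.
MXI1, chr10:110209981-110210230, plus strand, match 113 bases before 1 of 3 starts: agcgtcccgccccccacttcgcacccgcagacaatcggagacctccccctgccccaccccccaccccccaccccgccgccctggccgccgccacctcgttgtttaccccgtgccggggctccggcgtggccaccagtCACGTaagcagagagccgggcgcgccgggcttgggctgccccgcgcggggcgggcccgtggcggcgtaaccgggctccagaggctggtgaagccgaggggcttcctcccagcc
MXD4, chr4:2262295-2262359, minus strand, match 238 bases before the start: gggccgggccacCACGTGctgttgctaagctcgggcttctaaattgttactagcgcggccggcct
MNT, chr17:2401119-2401310, minus strand, match 193 bases before the start: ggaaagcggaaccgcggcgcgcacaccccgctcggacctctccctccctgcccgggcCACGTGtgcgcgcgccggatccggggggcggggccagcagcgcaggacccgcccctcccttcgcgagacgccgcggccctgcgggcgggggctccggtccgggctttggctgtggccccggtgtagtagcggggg

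Levels are FPKM as deposited, that is fragment counts scaled by transcript length and library size, so genes can be compared within a library. Library sums ranged between 259184 and 272235 FPKM, and how many fragments stand behind them is unknown. Fold changes are differences in log2(FPKM + 1), tested with limma over 12662 genes whose mean was at least 1 FPKM. A gene is said to rise or fall where its adjusted p is under 0.05. The library labelled SFN replicate 2 stood apart from its group. Across these genes its Pearson correlation was 0.993 with the SFN+5-FU libraries and 0.963 to 0.968 with the other SFN libraries, which correlated at 0.990 with each other. The SFN+5-FU libraries also correlated at 0.993 with each other, so SFN replicate 2 was as close to them as they were to one another. Whether SFN replicate 2 carries the right label was not tested, and it stays in its labelled group. Calls of single genes printed below that change without it are given both ways, while counts over gene lists are given both ways only in part. The epithelial markers EPCAM, KRT8, KRT18 and KRT19 were above 114 FPKM in all 9 libraries, CDX2 lay between 10.7 and 16.3 FPKM and VIL1 between 0.79 and 3.98 FPKM. The 6 epithelial markers summed to 1702 to 1716 FPKM with SFN+5-FU, 1761 to 2376 FPKM with SFN and 2536 to 2582 FPKM in control cells. The 5 markers of leukocytes, endothelium and fibroblasts summed to 0.80 to 0.87, 0.68 to 0.73 and 1.63 to 2.05 FPKM in SFN+5-FU, SFN and control cells, nearly all of it COL1A1, with PTPRC listed at 0 in every library and COL1A2 and DCN at most 0.01 FPKM. The part of these shifts in the results below was not tested.

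MYC was by far the most abundant member in every group and was higher in both treated groups. It had 96.3, 92.8 and 88.5 FPKM in the SFN+5-FU libraries, 92.4, 91.8 and 97.1 FPKM in the SFN libraries, and 46.5, 49.1 and 44.3 FPKM in the control libraries. Every treated library was above every control library, and the treated groups overlapped each other. SFN replicate 2 lay within the range of the other treated libraries for MYC. The means were 92.5 ± 3.87 FPKM with SFN+5-FU, 93.8 ± 2.91 FPKM with SFN and 46.6 ± 2.40 FPKM in control cells (SD, n = 3 each). MYC rose 2.01-fold with SFN, a log2 fold change of 0.99 with a standard error (SE) of 0.0612 and an adjusted p of 1.21e-05 from limma. With SFN+5-FU it rose 1.98-fold, a log2 fold change of 0.97 with an adjusted p of 7.67e-06 from limma. Between SFN+5-FU and SFN its log2 difference was -0.020, with a 95% confidence interval of -0.16 to 0.12 and an adjusted p of 0.832 from limma. In such bulk libraries a change in the share of cells that express a gene and a change in RNA per cell cannot be told apart.

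The other MYC family genes had lower levels in treated cells. MYCL, which encodes a MYC paralogue of weaker activity, had 1.58, 1.57 and 1.55 FPKM with SFN+5-FU, 2.05, 1.63 and 1.69 FPKM with SFN, and 3.27, 3.8 and 2.97 FPKM in control libraries. All 6 treated libraries were below all 3 controls. MYCL fell by 0.64 with SFN and by 0.76 with SFN+5-FU on the log2 scale, with adjusted p of 0.000550 and 0.000136 from limma. MYCN, the paralogue known from neuroblastoma, was near the bottom of the scale, with 0.06 to 0.11 FPKM in SFN+5-FU libraries, 0.06 to 0.07 FPKM in SFN libraries and 0.14 to 0.31 FPKM in control libraries. It missed the filter and is the only member that was not tested. MYC made up 98.2% to 98.3% of the summed FPKM of the 3 family genes in SFN+5-FU libraries, 97.8% to 98.2% in SFN libraries and 92.3% to 93.4% in control libraries.

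**Figure D1:**
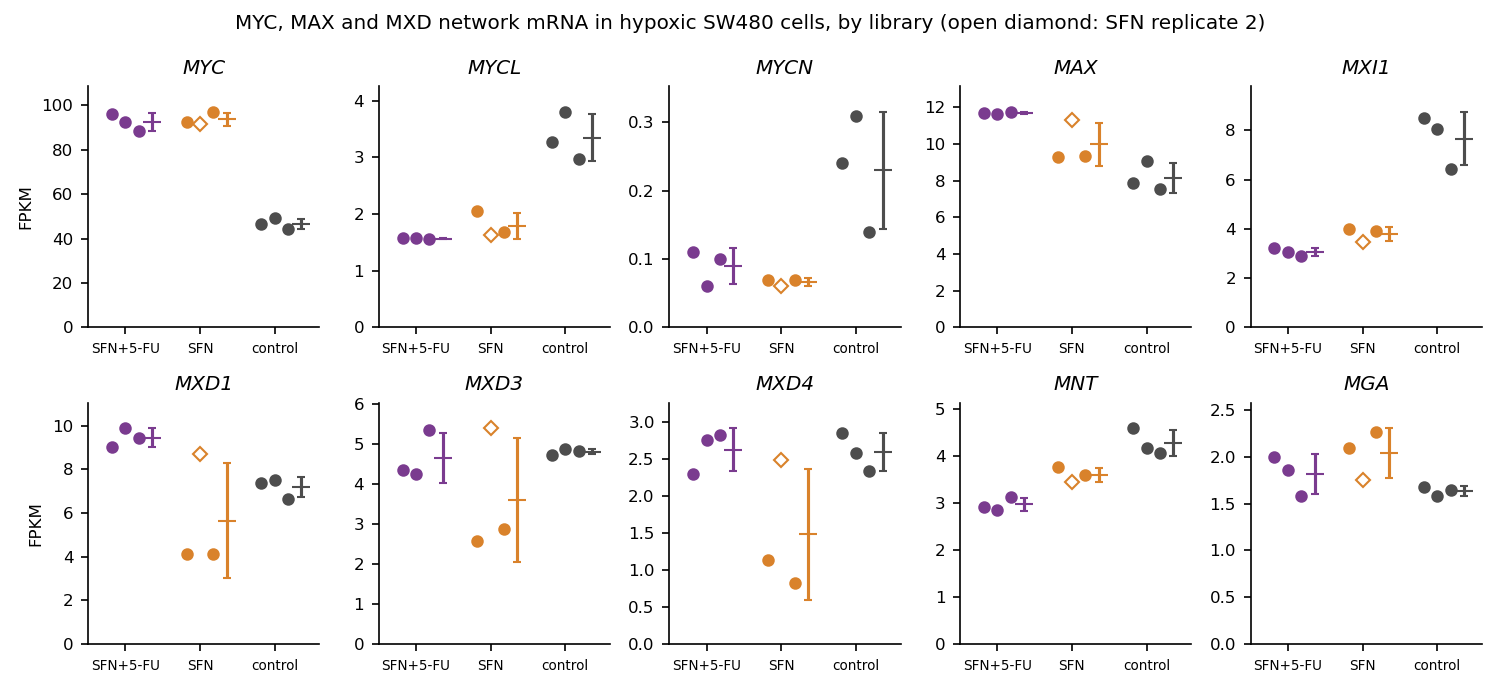
FPKM of the 10 network members in each library, with the group mean and SD at the right of each group (n = 3). MYC lies between 88.5 and 97.1 FPKM in the 6 treated libraries and between 44.3 and 49.1 FPKM in control, while SFN replicate 2 (open diamond) lies apart from the other SFN libraries for MAX, MXD1, MXD3 and MXD4.

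MAX, the partner that all network proteins share, had 11.7 FPKM in each SFN+5-FU library, 9.26, 11.3 and 9.33 FPKM in SFN libraries, and 7.85, 9.05 and 7.52 FPKM in control libraries. The groups did not overlap, and the high SFN value is that of replicate 2. MAX rose by 0.48 with SFN+5-FU (adjusted p = 0.00156 from limma). With SFN its log2 change was 0.26, with an SE of 0.0915 and an adjusted p of 0.0389 from limma. That call was lost in 10 of 19 alternative analyses, with adjusted p of at most 0.124 from limma. Among these were fits without SFN replicate 2 (0.18, adjusted p = 0.0643), any 1 SFN+5-FU library, or control replicate 1 or 3. The others had no filter, median-of-ratios scaling, quantile normalization, or only the 6 libraries compared. MYC stood at 7.54 to 8.26 times the MAX level in SFN+5-FU libraries, 8.11 to 10.4 times in SFN libraries and 5.43 to 5.92 times in control libraries.

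Among the antagonists called with all libraries, MXI1 had the largest changes. It had 3.22, 3.07 and 2.90 FPKM with SFN+5-FU, 3.98, 3.46 and 3.93 FPKM with SFN, and 8.49, 8.07 and 6.44 FPKM in control cells. All treated libraries were below all controls, and those with SFN+5-FU were below those with SFN alone. MXI1 fell by 0.85 with SFN and by 1.09 with SFN+5-FU on the log2 scale, with an SE of 0.10 and adjusted p of 0.000192 and 3.40e-05 from limma. Its difference between SFN+5-FU and SFN was -0.24 (adjusted p = 0.149), and without SFN replicate 2 it was -0.29 (adjusted p = 0.0401 from limma). The MYC to MXI1 ratio was 29.9 to 30.5 in SFN+5-FU libraries, 23.2 to 26.5 in SFN libraries and 5.47 to 6.88 in control libraries.

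MNT, a broadly expressed antagonist, had 2.91, 2.85 and 3.13 FPKM with SFN+5-FU, 3.75, 3.44 and 3.58 FPKM with SFN, and 4.58, 4.16 and 4.05 FPKM in control cells. The 3 groups did not overlap. MNT fell by 0.41 with SFN+5-FU (adjusted p = 0.000937 from limma). With SFN the log2 change was -0.20 with an adjusted p of 0.0449 from limma. That call was lost in 13 of 18 alternative analyses, among them those without SFN replicate 2 (-0.17, adjusted p = 0.0606), SFN replicate 3, any 1 SFN+5-FU library or any 1 control library, with adjusted p of at most 0.172 from limma. After correction for GC content and length it was 0.022 with an adjusted p of 0.794.

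The antagonists MXD1, MXD3 and MXD4 split the SFN group. MXD1 had 9.04, 9.88 and 9.45 FPKM with SFN+5-FU, 4.12, 8.69 and 4.12 FPKM with SFN, and 7.38, 7.50 and 6.65 FPKM in control cells. SFN replicates 1 and 3 lay below every other library, while SFN replicate 2 lay above all controls and below the SFN+5-FU libraries. With all libraries in the main fit, no comparison of MXD1 passed the test. The log2 differences were -0.37 for SFN against control, 0.36 for SFN+5-FU against control and 0.72 for SFN+5-FU against SFN. Their adjusted p were 0.178, 0.167 and 0.134 from limma. When SFN replicate 2 was left out the differences were -0.67, 0.36 and 1.03, and all 3 were called. Their adjusted p were then 6.42e-05, 0.000519 and 1.79e-05 from limma. All 3 were also called with library weights, and that of SFN+5-FU against control also in only the 6 libraries compared.

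MXD3 had 4.36, 4.25 and 5.37 FPKM with SFN+5-FU, 2.57, 5.40 and 2.87 FPKM with SFN, and 4.74 to 4.88 FPKM in control cells. MXD4 had 2.29, 2.75 and 2.82 FPKM with SFN+5-FU, 1.13, 2.48 and 0.82 FPKM with SFN, and 2.85, 2.58 and 2.33 FPKM in control cells. For both genes SFN replicates 1 and 3 were below all other libraries, and the SFN+5-FU and control ranges overlapped. MXD4 fell by 0.59 with SFN (adjusted p = 0.0380 from limma). That call was lost in 11 of 18 alternative analyses, with adjusted p of at most 0.121 from limma. Among these were fits without SFN replicate 1 or 3, any 1 SFN+5-FU library or any 1 control library. The others had no filter, correction for GC content and length, or only the 6 libraries compared. Without SFN replicate 2, MXD4 differed by -0.86 and MXD3 by -0.65 between SFN and control, with adjusted p of 0.000172 and 0.000375 from limma. Between SFN+5-FU and SFN the same fit gave differences of 0.88 for MXD4 and 0.60 for MXD3, with adjusted p of 0.000212 and 0.000703 from limma. With all libraries these differences were 0.60 and 0.34, with adjusted p of 0.134 and 0.237.

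MGA, the largest MAX partner, had 2.00, 1.86 and 1.58 FPKM with SFN+5-FU, 2.10, 1.75 and 2.27 FPKM with SFN, and 1.68, 1.58 and 1.65 FPKM in control cells. The SFN libraries were all above the controls, and the SFN+5-FU range held the whole control range. Its log2 changes of 0.20 with SFN and 0.091 with SFN+5-FU did not pass the test (adjusted p = 0.0899 and 0.394 from limma). When SFN replicate 2 was left out the change with SFN was 0.27 and passed it (adjusted p = 0.0183 from limma).

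Counted over the 9 tested members, 6 changed with SFN: MYC and MAX rose, and MYCL, MXI1, MXD4 and MNT fell. Among all tested genes 50.0% were called in that comparison (27.5% higher and 22.5% lower). With SFN+5-FU 5 members changed against control: MYC and MAX rose, and MYCL, MXI1 and MNT fell, beside 66.2% of all tested genes (38.3% higher and 28.0% lower). Against these shares, 6 of 9 and 5 of 9 members are near the background and say nothing particular of the network. The median log2 fold change of the members was -0.37 with SFN and 0.013 with SFN+5-FU, against 0.053 and 0.097 over all tested genes. Between SFN+5-FU and SFN no member was called by limma, beside 0.00790% of all genes, which is 1 gene, although 2249 genes were higher and 1733 lower at an unadjusted p under 0.05. With SFN replicate 2 left out, MYC and MGA rose and MYCL, MXI1, MXD1, MXD3 and MXD4 fell with SFN, beside 56.9% of all genes called (30.0% higher and 26.9% lower). In that fit MYC, MAX and MXD1 rose and MYCL, MXI1 and MNT fell with SFN+5-FU against control, beside 74.7% (43.4% higher and 31.3% lower). MAX, MXD1, MXD3 and MXD4 were higher and MXI1 and MNT lower with SFN+5-FU than with SFN, beside 51.2% (29.8% higher and 21.4% lower).

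**Figure D2:**
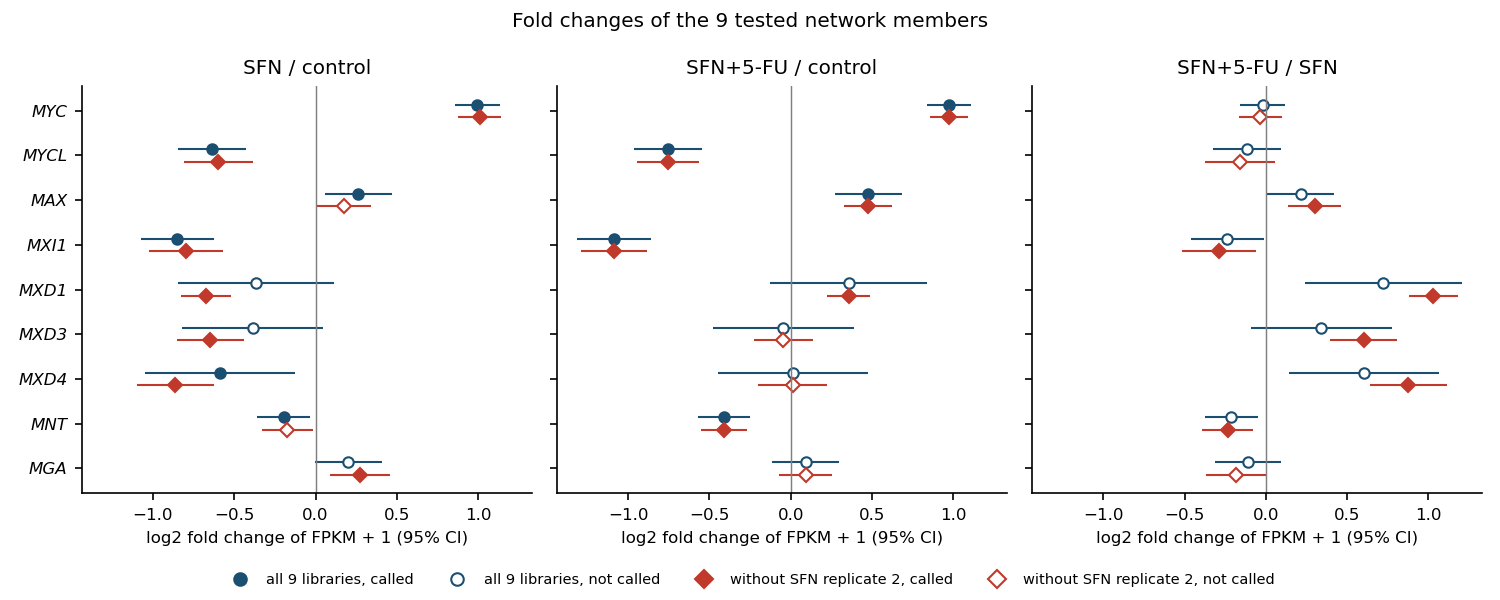
Log2 fold changes of FPKM + 1 for the 9 tested members in the 3 comparisons, with 95% confidence intervals from limma; filled symbols passed the test, and red diamonds leave out SFN replicate 2. MYC lies near 1 against control in both treatments, and the intervals of MXD1, MXD3 and MXD4 are narrower without that library.

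The order of the levels differed between groups below the top rank. With SFN+5-FU it ran MYC, MAX, MXD1, MXD3, MXI1, MNT, MXD4, MGA, MYCL and MYCN, and the ranges of MXI1 and MNT and those of MGA and MYCL overlapped. With SFN it ran MYC, MAX, MXD1, MXI1, MXD3, MNT, MGA, MYCL, MXD4 and MYCN, with overlaps from MXI1 through MNT and from MGA through MXD4, and the wide range of MXD1 also overlapped that of MXD3. In control cells it ran MYC, MAX, MXI1, MXD1, MXD3, MNT, MYCL, MXD4, MGA and MYCN, where the range of MXI1 overlapped those of MAX and MXD1, which did not overlap each other. MXI1 stood at rank 5 with SFN+5-FU, rank 4 with SFN and rank 3 in control cells.

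The summed level of the 5 antagonists (MXI1, MXD1, MXD3, MXD4 and MNT) set beside MYC shows how the balance of mRNA moved. The sum was 21.8, 22.8 and 23.7 FPKM in the SFN+5-FU libraries, 15.6, 23.5 and 15.3 FPKM in the SFN libraries, and 28.0, 27.2 and 24.3 FPKM in the control libraries. All treated libraries were below all controls. MYC stood at 4.41, 4.07 and 3.74 times that sum with SFN+5-FU, at 5.94, 3.91 and 6.34 times with SFN, and at 1.66, 1.81 and 1.82 times in control cells. The ratio was higher in every treated library than in any control, and its SFN mean of 5.40 ± 1.30 was 6.14 over SFN replicates 1 and 3. The make-up of the sum also differed. MXI1 supplied 12.3% to 14.8% of it with SFN+5-FU, 25.6%, 14.7% and 25.7% with SFN, and 26.5% to 30.3% in control cells. MXD1 supplied 39.9% to 43.3% with SFN+5-FU, 26.5%, 37.0% and 26.9% with SFN, and 26.3% to 27.6% in control cells. These ratios describe mRNA and were not tested.

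**Figure D3:**
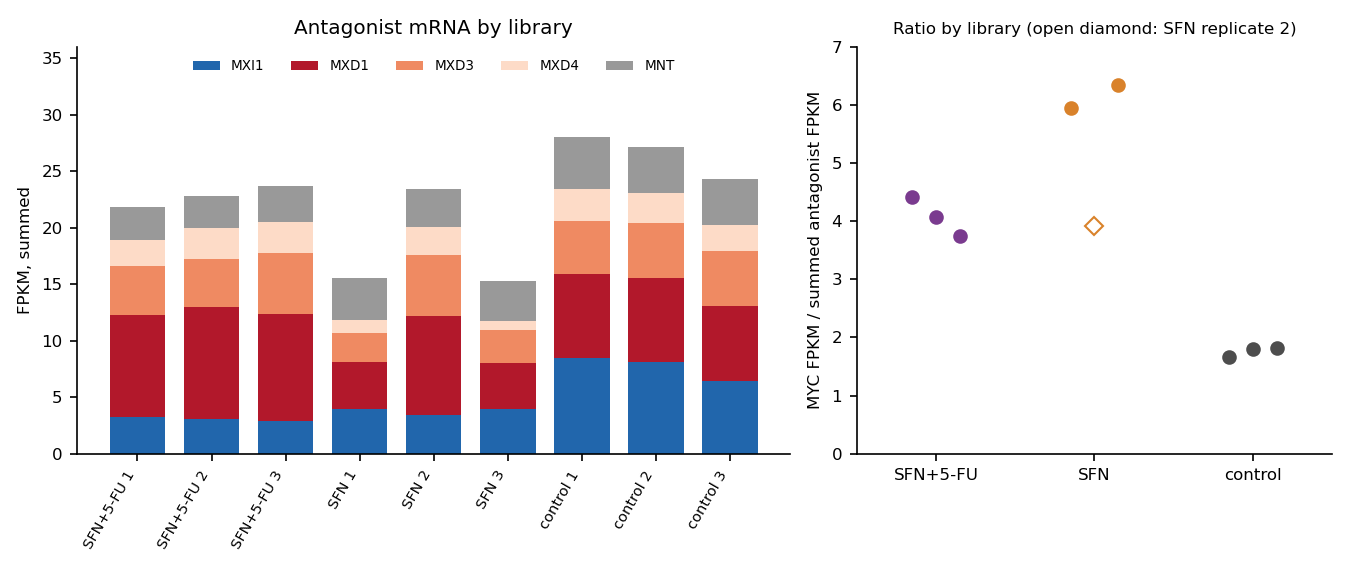
Left, summed FPKM of the 5 antagonists in each library, stacked by gene; right, MYC FPKM divided by that sum. The sum is 15.3 to 23.7 FPKM in treated libraries and 24.3 to 28.0 FPKM in control, and the ratio is at least 3.74 in treated libraries and at most 1.82 in control.

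A parallel arm of the network is built on MLX, a MAX-like partner that pairs with MLXIP (MondoA) and MLXIPL (ChREBP), both sensors of glucose metabolites, and also with MXD1, MXD4 and MNT. MLX averaged 25.2 ± 0.0265 FPKM with SFN+5-FU, 24.7 ± 0.722 FPKM with SFN and 16.7 ± 0.580 FPKM in control cells (SD, n = 3 each). It rose by 0.54 with SFN and 0.57 with SFN+5-FU, with adjusted p of 0.000102 and 4.45e-05 from limma. MLXIPL had 0.72, 0.45 and 0.81 FPKM with SFN+5-FU, 1.18, 1.07 and 0.95 FPKM with SFN, and 5.95, 5.98 and 5.43 FPKM in control cells. The 3 groups did not overlap. MLXIPL fell by 1.72 with SFN and by 2.04 with SFN+5-FU, with adjusted p of 8.69e-06 and 3.00e-06 from limma. MLXIP had 3.60 to 4.02 FPKM with SFN+5-FU, 3.29 to 3.65 FPKM with SFN and 2.88 to 3.05 FPKM in control cells. It rose with SFN+5-FU (0.26, adjusted p = 0.00906), and its change of 0.17 with SFN missed the threshold (adjusted p = 0.0679 from limma).

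The corepressor that the antagonists recruit was measured through 14 SIN3-HDAC genes, and all were tested. With SFN, 3 rose (HDAC2, SAP18 and BRMS1) and 2 fell (SAP30 and SUDS3), with a median log2 change of 0.0085. With SFN+5-FU, 4 rose (HDAC2, SAP18, ING2 and BRMS1) and 2 fell (HDAC1 and SUDS3), with a median of 0.10. Of all tested genes 50.0% were called with SFN and 66.2% with SFN+5-FU, so both counts are below the background. BRMS1, a SIN3-HDAC subunit known as a metastasis suppressor, averaged 55.3 ± 2.29 FPKM with SFN+5-FU, 46.9 ± 5.49 FPKM with SFN and 24.4 ± 0.982 FPKM in control cells (SD, n = 3 each). It rose by 0.91 with SFN and 1.15 with SFN+5-FU (adjusted p = 5.64e-05 and 1.30e-05 from limma). SAP18, which also belongs to an RNA-processing complex, averaged 49.0 ± 1.27, 37.0 ± 9.74 and 23.8 ± 0.803 FPKM in SFN+5-FU, SFN and control cells, and rose by 0.58 with SFN and 1.01 with SFN+5-FU (adjusted p = 0.00861 and 0.000299 from limma). SUDS3 fell by 0.56 with SFN and by 0.59 with SFN+5-FU. With SFN replicate 2 left out the counts were 3 higher and 4 lower with SFN, and 7 higher and 3 lower with SFN+5-FU. In that fit 56.9% and 74.7% of all tested genes were called. Without SFN+5-FU replicate 2, 3 were higher and 1 lower with SFN+5-FU, beside 58% called. Without SFN replicate 1, 3 were lower with SFN, beside 53.6% called. Median-of-ratios scaling gave 3 higher and 4 lower in both comparisons, beside 49.6% and 64.9% called. Quantile normalization gave 3 and 4 with SFN and 3 and 3 with SFN+5-FU, beside 50.4% and 65.1%. Correction for GC content and length gave 5 and 4 in both, beside 50.5% and 66.2%.

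The 9 genes listed for the other subunits of PRC1.6, the complex that holds MGA, leaned one way with SFN+5-FU. With SFN, 3 rose (L3MBTL2, TFDP1 and CBX3) and none fell, with a median log2 change of 0.32. With SFN+5-FU, 8 rose and none fell, RING1 being the gene that was not called, with a median of 0.58. Of all tested genes 27.5% rose with SFN and 38.3% with SFN+5-FU, so the SFN count lies near the background. E2F6, the repressive E2F factor of the complex, averaged 15.1 ± 0.206 FPKM with SFN+5-FU, 11.5 ± 2.58 FPKM with SFN and 8.89 ± 0.188 FPKM in control cells (SD, n = 3 each), with SFN replicate 2 the highest in its group. It rose by 0.70 with SFN+5-FU (adjusted p = 0.00113 from limma), and its change of 0.32 with SFN missed the threshold (adjusted p = 0.0598 from limma). That change passed it without SFN replicate 1 (0.47, adjusted p = 0.00263 from limma) and with library weights. Without SFN replicate 2 it was 0.17 and was not called. RYBP, which activates the ubiquitin ligase of such complexes, rose by 0.76 with SFN+5-FU, and L3MBTL2, its chromatin-binding subunit, rose by 0.42 with SFN (adjusted p = 0.00162 and 0.00648 from limma). The counts with SFN moved to 7 higher without SFN replicate 1, where 53.6% of all tested genes were called in either direction. They moved to 2 higher without SFN replicate 3, without control replicate 2 or with median-of-ratios scaling, where 45.5%, 39.2% and 49.6% were called. Without SFN replicate 2, 3 were higher with SFN and 9 with SFN+5-FU, beside 30.0% and 43.4% of all tested genes. In that fit 8 were higher with SFN+5-FU than with SFN, beside 29.8% of all tested genes.

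**Figure D4:**
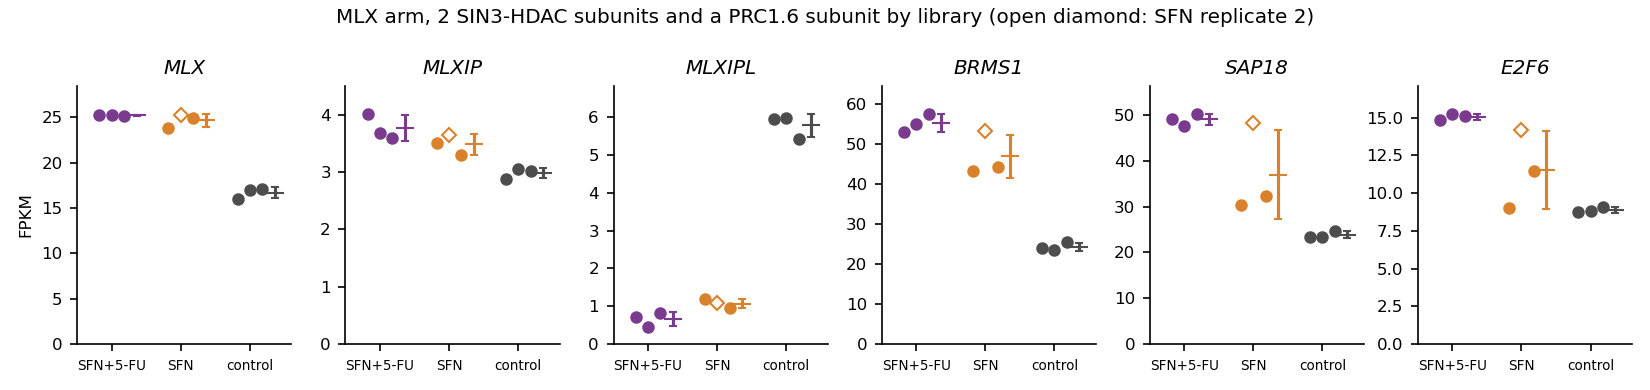
FPKM by library for the MLX arm (MLX, MLXIP and MLXIPL), the SIN3-HDAC subunits BRMS1 and SAP18, and E2F6 of PRC1.6, with group mean and SD (n = 3). MLXIPL is 0.45 to 1.18 FPKM in treated libraries and 5.43 to 5.98 FPKM in control, while the other 5 genes have higher means in both treated groups.

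MYC's coactivators, the acetyltransferase, chromatin-remodelling and elongation factors it binds, were followed through 16 genes, all of them tested. With SFN, 7 rose and none fell (median 0.19). With SFN+5-FU, 8 rose and 3 fell (median 0.20). Those that fell were TRRAP, KAT5 and EP400. Of all tested genes 50.0% were called with SFN (27.5% higher and 22.5% lower) and 66.2% with SFN+5-FU (38.3% higher and 28.0% lower). In either direction the counts lie close to these shares, while all those called with SFN were higher. TRRAP, the scaffold that MYC contacts, averaged 7.81 ± 0.311 FPKM with SFN+5-FU, 9.83 ± 1.82 FPKM with SFN and 11.6 ± 0.609 FPKM in control cells (SD, n = 3 each). It fell by 0.52 with SFN+5-FU (adjusted p = 0.00340 from limma), and after correction for GC content and length its change was -0.23 with an adjusted p of 0.0529. KAT2A, the GCN5 acetyltransferase, rose by 0.46 with SFN and 0.38 with SFN+5-FU (adjusted p = 0.000706 and 0.00123 from limma). RUVBL1, an ATPase of remodelling complexes, rose by 0.51 with SFN (adjusted p = 0.00371 from limma). CCNT1, the cyclin of the elongation kinase P-TEFb, rose by 0.54 with SFN+5-FU (adjusted p = 0.00772 from limma). With median-of-ratios scaling the SFN count was 4 higher and 2 lower and the SFN+5-FU count 5 and 3, beside 49.6% and 64.9% of all tested genes called. Quantile normalization gave 5 and 2 with SFN and 4 and 3 with SFN+5-FU, beside 50.4% and 65.1%. The SFN count was 7 higher and 2 lower without SFN replicate 2, 9 and 1 without SFN replicate 1, and 6 and 1 without SFN replicate 3. Those fits called 56.9%, 53.6% and 45.5% of all tested genes with SFN. Without control replicate 1 the count with SFN+5-FU was 5 higher and 3 lower, beside 57.6% called.

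Genes known to be activated by MYC were mostly higher in treated cells. Of 46 listed genes 45 were tested, and TERT, at 0.05 to 0.16 FPKM, was not. With SFN, 40 rose and 2 fell (SHMT2 and CCND2), with a median log2 change of 0.90 against 0.053 over all tested genes, of which 27.5% rose and 22.5% fell. With SFN+5-FU, 35 rose and 3 fell (LDHA, SHMT2 and CCND2), with a median of 0.83 against 0.097 over all tested genes, of which 38.3% rose and 28.0% fell. The counts of higher genes lay between 36 and 41 with SFN and between 34 and 37 with SFN+5-FU when any 1 library was left out. The list was chosen with earlier results of these data known, and its genes are also regulated by other factors.

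ODC1, the first enzyme of polyamine synthesis, averaged 260.5 ± 6.52 FPKM with SFN+5-FU, 186 ± 47.4 FPKM with SFN and 57.2 ± 5.11 FPKM in control cells (SD, n = 3 each). It rose by 1.66 with SFN and by 2.17 with SFN+5-FU (adjusted p = 5.55e-05 and 1.14e-05 from limma). TFRC, the transferrin receptor, averaged 30.2 ± 2.98, 31.8 ± 3.72 and 11.5 ± 1.42 FPKM in SFN+5-FU, SFN and control cells and rose by 1.39 with SFN (adjusted p = 3.30e-05 from limma). CDC25A, a phosphatase that activates cyclin-dependent kinases, averaged 21.7 ± 0.299 FPKM with SFN+5-FU, 17.1 ± 3.94 FPKM with SFN and 7.74 ± 0.889 FPKM in control cells, and rose by 1.38 with SFN+5-FU (adjusted p = 4.82e-05 from limma). These 3 genes were thus higher in both treated groups, as was SRM, spermidine synthase, by 1.33 with SFN and 1.26 with SFN+5-FU.

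LDHA, lactate dehydrogenase A, went the other way with SFN+5-FU and is also a known HIF-1 target. It averaged 189.6 ± 14 FPKM with SFN+5-FU, 351 ± 130.1 FPKM with SFN and 438 ± 15.4 FPKM in control cells (SD, n = 3 each). LDHA fell by 1.21 with SFN+5-FU (adjusted p = 0.00218 from limma), while the change of -0.40 with SFN had an adjusted p of 0.200 and was -0.042 without SFN replicate 2. SHMT2, the mitochondrial serine hydroxymethyltransferase, fell by 0.61 with SFN and by 0.86 with SFN+5-FU. CCND2, cyclin D2, fell by 0.52 with SFN and by 0.59 with SFN+5-FU.

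**Figure D5:**
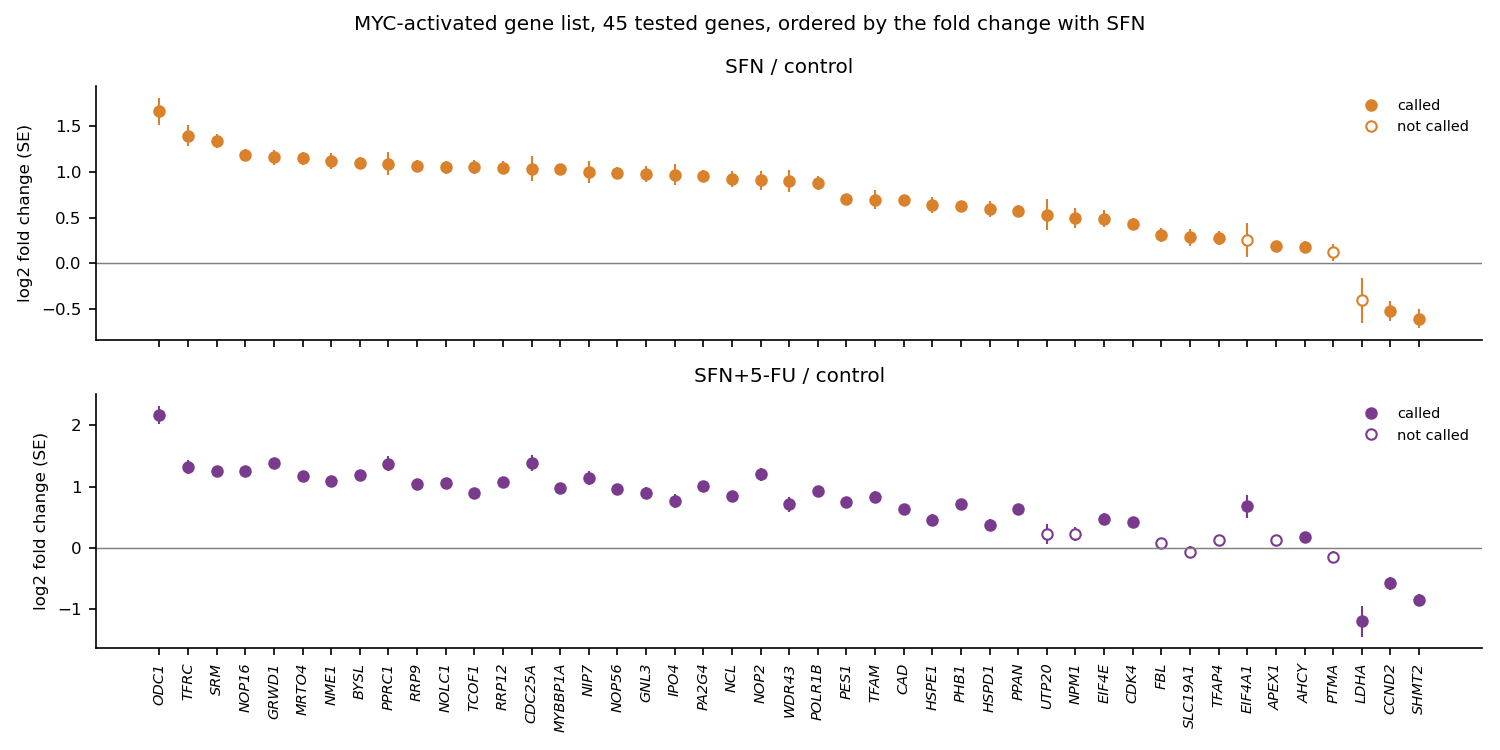
Log2 fold changes with SE for the 45 tested MYC-activated genes, ordered by the change with SFN; filled points passed the test. ODC1 leads with 1.66 for SFN and 2.17 for SFN+5-FU, and LDHA, CCND2 and SHMT2 lie below 0 in both panels.

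Genes known to be repressed by MYC did not move together. Of 12 listed, 10 were tested. With SFN, 1 rose (CDKN2B) and 4 fell (CDKN1A, CDKN1B, CDKN1C and NDRG1), with a median of -0.24. With SFN+5-FU, 4 rose (CDKN2B, DDIT3, FTH1 and THBS1) and 3 fell (CDKN1B, CDKN1C and NDRG1), with a median of 0.42. In either direction these counts lie near the shares of all tested genes called, 50.0% with SFN and 66.2% with SFN+5-FU. By direction those shares were 27.5% higher and 22.5% lower with SFN, and 38.3% higher and 28.0% lower with SFN+5-FU. CDKN1C, the cyclin-dependent kinase inhibitor p57, averaged 2.40 ± 0.393 FPKM with SFN+5-FU, 3.96 ± 1.19 FPKM with SFN and 14.5 ± 2.81 FPKM in control cells (SD, n = 3 each). It fell by 1.66 with SFN and by 2.18 with SFN+5-FU (adjusted p = 0.000179 and 2.75e-05 from limma). NDRG1, also induced by hypoxia, averaged 15.3 ± 1.6, 34.7 ± 14.9 and 92.2 ± 13.2 FPKM in SFN+5-FU, SFN and control cells and fell by 1.48 with SFN and by 2.51 with SFN+5-FU. CDKN2B, the inhibitor p15, rose by 1.15 with SFN and 1.33 with SFN+5-FU.
When SFN replicate 2 was left out the counts were 1 higher and 6 lower with SFN, and 6 higher and 3 lower with SFN+5-FU. Over all tested genes that fit called 30.0% higher and 26.9% lower with SFN, and 43.4% higher and 31.3% lower with SFN+5-FU. Without SFN replicate 1 the SFN count was 2 higher and 4 lower with a median of 0.0088, beside 53.6% of all tested genes called. Without SFN replicate 3 it was 1 and 3 with a median of 0.031, beside 45.5%. FTH1, the ferritin heavy chain, averaged 1664 ± 60.2 FPKM with SFN+5-FU, 1270.1 ± 319 FPKM with SFN and 1014 ± 7.57 FPKM in control cells, and its difference of 0.42 between SFN+5-FU and SFN had an adjusted p of 0.134 from limma. With SFN replicate 2 left out, FTH1 was higher with SFN+5-FU than with SFN by 0.61 (adjusted p = 3.29e-05 from limma).

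Between SFN+5-FU and SFN none of the genes on these lists was called by limma with all libraries. The most abundant gene of each list differed by -0.21 for the coactivator RUVBL2 (adjusted p = 0.139), 0.24 for BRMS1 (0.134), 0.17 for TFDP1 (0.226), 0.029 for MLX (0.719) and -0.80 for LDHA (0.134). With SFN replicate 2 left out, RUVBL2 (-0.30, adjusted p = 0.00101) and LDHA (-1.17, adjusted p = 1.20e-05) were lower, and BRMS1 (0.33, adjusted p = 0.00108) and TFDP1 (0.24, adjusted p = 0.0344) higher with SFN+5-FU than with SFN, while MLX differed by 0.044 (adjusted p = 0.474 from limma). In that fit 29.8% of all tested genes were higher and 21.4% lower. Beside these shares, 6 of 16 coactivator genes were higher and 5 lower, 6 of 14 SIN3-HDAC genes were higher and none lower, and 1 of 3 genes of the MLX arm was lower. Of 45 MYC-activated genes 5 were higher and 13 lower, and of 10 MYC-repressed genes 6 were higher and 2 lower.

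Genes whose levels followed those of 3 members most closely over the 9 libraries were listed among 6811 other genes with a symbol and a mean of at least 5 FPKM (6812 for MXI1). Those most like MYC were CCDC86 (Pearson r = 0.998), GRPEL1 (0.996), MYBBP1A (0.995), GEMIN5 (0.995) and RAP1GAP2 (0.995). CCDC86 had 48.6 to 49.2 FPKM with SFN+5-FU, 48.6 to 50.5 FPKM with SFN and 25.6 to 27.4 FPKM in control cells. Those most like MAX were MFSD5 (0.989), ZNF792 (0.988), CNPY3 (0.984), SNHG16 (0.982) and NR2C2AP (0.979). Those most like MXI1 were APP (0.994), DMTN (0.993), SYTL3 (0.993), TNFRSF19 (0.992) and ZKSCAN1 (0.992). The 9 libraries fall into treatment groups, so these values describe a shared group pattern within the same libraries and carry no test.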

How the data were processed

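Gene-level FPKM values were used as deposited by the authors. Per the submitters' processing notes, fastp, StringTie and edgeR were used, without versions. For the aligner, the genome build and the annotation, the sources used here give no name, and the sequencing depth is unknown. Per the labels' protocols, poly(A) RNA was made into paired-end libraries with dUTP strand marking.

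Of 41041 Ensembl identifiers, 41002 matched the name table. Genes with a mean of at least 1 FPKM (12662) entered 1 limma fit (version 3.58.1, R 4.3.3) of log2(FPKM + 1) over all 9 libraries, with the mean-variance trend option, 3 contrasts (6 residual and 3.20 prior degrees of freedom) and Benjamini-Hochberg adjustment within each. P-values are two-sided and measure the spread between the biological replicates named by the labels. The log2 scale with a pseudocount of 1 understates changes of low genes. The procedure was tested on simulated data in which each gene had the same spread in every library. That test therefore does not cover a library that stands apart, such as SFN replicate 2.

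Network members and gene lists were chosen with earlier results of these data known. All members are named, and per list and contrast the 2 called genes of largest change, or else the gene of highest mean. Other genes, among them SHMT2, CCND2, SRM, TERT and those that make up a small count, were named after their values were seen. A result for a gene of the MYC stability list is not reported here. In all, 19 alternatives were run. Sequences are from the RefSeq promoter table (GRCh38.p14), trimmed with GENCODE 29 exons. Figures used Python 3.11.15 and matplotlib 3.10.9.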

Additional observations from a re-analysis of the deposited data

How the results depend on the processing

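The rises of MYC and falls of MYCL and MXI1 against control held in every alternative that could test them, as did the calls of MAX and MNT with SFN+5-FU. A filter at a mean of 5 FPKM tested fewer genes (6939) and called 3888 with SFN (1399 lower) and 4903 with SFN+5-FU (3189 higher, 1714 lower). Between SFN+5-FU and SFN, the count was 1 higher and 0 lower with no filter, 7432 with library weights (4225 higher, 3207 lower), and 0 in the 6 libraries alone. When 1 library was left out it ran between 0 and 6478 (0 to 3774 higher, 0 to 2704 lower), with the top values without SFN replicate 2. With MNT left out of the sum, MYC stood at 4.68, 6.90 and 2.10 times it in SFN+5-FU, SFN and control cells. Signs changed for MNT with SFN (0.022 after GC and length correction) and for differences that were not called. MLX between SFN+5-FU and SFN was -0.012 with median-of-ratios scaling, -0.039 with quantile normalization and -0.022 after GC and length correction. MXD4 with SFN+5-FU was -0.068 with median-of-ratios scaling, -0.052 with weights and -0.040 to 0.080 with 1 library left out. In such fits MXD3 with SFN+5-FU ran from -0.13 to 0.0058 and MYC between SFN+5-FU and SFN from -0.048 to 0.011. The cause was not tested. The replicate block gave 6038 calls with SFN, 8151 with SFN+5-FU and 0 between them. Same-numbered libraries did not pair (r of -0.143 to 0.107 over 9 pairs, 1 above 0.1). FPKM without counts gives no depth, which limits MYCN and other genes near 0.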

Other observations

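Genes that act on the MYC protein were also measured. Of 14 genes for MYC stability, 12 were tested, and 2 rose (USP36 and CIP2A) and 2 fell (HUWE1 and USP28) with SFN, where 50.0% of all tested genes were called. With SFN+5-FU, USP36 and CIP2A rose and 4 genes fell (HUWE1, USP28, AURKA and PLK1), beside 28.0% of all tested genes that fell. USP36, a nucleolar deubiquitinase of MYC, averaged 11.8 ± 0.512 FPKM with SFN+5-FU, 11.2 ± 1.17 FPKM with SFN and 6.98 ± 0.186 FPKM in control cells (SD, n = 3 each). It rose by 0.60 with SFN and 0.69 with SFN+5-FU (adjusted p = 0.000346 and 0.000104 from limma). CIP2A, which protects MYC from the phosphatase PP2A, rose by 0.71 with SFN and 0.66 with SFN+5-FU. AURKA, a mitotic kinase that stabilises MYC family proteins, averaged 25.9 ± 0.542 FPKM with SFN+5-FU, had 64.4, 25.9 and 75.9 FPKM in the SFN libraries and averaged 49.1 ± 2.58 FPKM in control cells. SFN replicate 2 again lay with the SFN+5-FU libraries. AURKA fell by 0.90 with SFN+5-FU (adjusted p = 0.0309 from limma), and all SFN+5-FU libraries were below all controls. That call was lost with no filter or without any 1 SFN+5-FU or control library (adjusted p of at most 0.0836 from limma). It held without SFN replicate 2 and in only the 6 libraries compared, and its lowest adjusted p over the alternatives was 1.91e-06 from limma. PLK1, another mitotic kinase, fell by 0.94 with SFN+5-FU (adjusted p = 0.0218 from limma), again with no overlap with control, and its call held in the same fits. It was lost with no filter, and without SFN+5-FU replicate 1 or 2 or control replicate 2 or 3 (adjusted p of at most 0.0626 from limma). Without 1 of those libraries the number of lower genes was 2 with SFN+5-FU, where 58% to 60.5% of all tested genes were called. It was 6 with quantile normalization or after GC and length correction, where 65.1% and 66.2% were called. With SFN it was 1 without any 1 SFN+5-FU or control library, where 38.3% to 46.6% of all tested genes were called. Without SFN replicate 2, 4 rose and 2 fell with SFN, beside 30.0% of all tested genes that rose and 26.9% that fell.

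Of 14 listed regulators of the MYC gene and RNAs transcribed near it, 13 were found and 9 tested. With SFN, 5 rose (LEF1, FUBP1, CNBP, PVT1 and CASC8) and 2 fell (CTNNB1 and TCF7), where 50.0% of all tested genes were called. With SFN+5-FU, 3 rose (LEF1, FUBP1 and CNBP) and 2 fell (CTNNB1 and TCF7), where 66.2% were called. LEF1, a DNA-binding partner of β-catenin, averaged 15.3 ± 1.86 FPKM with SFN+5-FU, 13.7 ± 1.69 FPKM with SFN and 7.63 ± 0.225 FPKM in control cells (SD, n = 3 each). It rose by 0.76 with SFN and 0.91 with SFN+5-FU (adjusted p = 0.000410 and 9.54e-05 from limma). TCF7, a related factor, averaged 9.89 ± 0.363, 8.83 ± 1.81 and 19.7 ± 1.26 FPKM in SFN+5-FU, SFN and control cells. It fell by 1.09 with SFN and by 0.92 with SFN+5-FU. CASC8, a noncoding RNA of the MYC region, had 1.52 to 1.94 FPKM with SFN+5-FU, 3.10, 1.68 and 3.02 FPKM with SFN, and 1.14 to 1.22 FPKM in control cells. It rose by 0.69 with SFN (adjusted p = 0.00516 from limma). HNRNPK, the most abundant gene of the list, differed by -0.19 between SFN+5-FU and SFN (adjusted p = 0.199 from limma), and by -0.31 with SFN replicate 2 left out (adjusted p = 0.00115 from limma). The SFN count of higher genes was 3 after GC and length correction and without SFN replicate 3 or control replicate 2. In these fits 50.5%, 45.5% and 39.2% of all tested genes were called in either direction. The count was 6 without SFN replicate 2, beside 30.0% of all tested genes higher. That of lower genes was 1 without any 1 control library, beside 38.3% to 44.1% called in either direction.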
